A study of Mus musculus with 14 samples.

Results

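The 33 genes described here encode the contents of neutrophil granules and the surface receptors of maturing neutrophils. They were chosen by name and matched to NCBI gene identifiers through the RefSeq gene table of GRCm38. All 33 were present among the 17890 genes of the table, and all 33 passed the filter on low counts. The list was divided by maturation stage into 7 genes of the primary granule stage, 15 of the secondary, 5 of the tertiary and 6 late receptors and enzymes. The place of single genes in these stages, such as Hp, Olfm4, Orm1 and Wfdc21 among the secondary, follows general knowledge of neutrophil development. The genes and their stages were, however, chosen with earlier results of these data known.

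Neutrophils are formed in bone marrow from progenitors that pass through the promyelocyte, myelocyte, metamyelocyte and band stages. Each stage transcribes its own granule proteins and then shuts them off. Primary (azurophil) granules, filled at the promyelocyte stage, hold myeloperoxidase and serine proteases. Secondary (specific) granules hold lactoferrin and antimicrobial peptides and are made under control of the transcription factor C/EBPε. Tertiary granules hold gelatinase, and the receptors for chemotactic ligands appear last. A shift in the ratio of early to late transcripts is therefore a common readout of maturation in marrow, whereas marrow-derived macrophage cultures are usually expected to hold few neutrophils.

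Messenger RNA had been sequenced from cells labelled as macrophages grown out of mouse bone marrow, as 4 libraries named D and 4 named M. The mice were male, C57BL/6J and 8 weeks old at the start. In the diabetic group, daily injections of streptozotocin, a toxin of insulin-producing cells, were given at 42 to 45 mg/kg for 5 days. Glucose above 16.9 mmol/L in the fed state defined diabetes. A fast of some hours is also recorded, for the diabetic group only. After 6 weeks of hyperglycaemia, marrow progenitors of diabetic and control mice alike spent 7 days with the growth factor M-CSF in medium of 5 mmol/L glucose. D is the initial of diabetic, while no label explains M, which was left for the healthy mice once D was placed. Directions below therefore compare D with M, and swapping the meaning of the letters would reverse them. Whether the control mice were fasted or received vehicle is not said, nor which libraries came from separate animals. The p-values then measure the spread between these libraries, which may be technical. A second phase of 6 samples was not analysed here.

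The 8 libraries held 19048195 to 20027967 estimated counts. Of 12839 genes tested, 34.7% were called, 17.4% higher and 17.3% lower in the D libraries, by edgeR's quasi-likelihood test at an adjusted p under 0.05. Within the D group, D replicates 1 and 3 stood at the ends of the first principal component (-16.0 and -54.5). The labelled cell type was read from 13 macrophage markers. Csf1r, the M-CSF receptor, was at 209 ± 22.5 against 162 ± 9.97 CPM (mean ± SD, n = 4 per group, D against M, in CPM, counts scaled by TMM to a common library total). Adgre1, which encodes F4/80, was at 87.3 ± 22.4 against 46.7 ± 6.91 CPM, Cd68 at 179 ± 14.4 against 192 ± 39.7 CPM and the Fc receptor Fcgr1 at 21.9 ± 3.17 against 8.02 ± 1.62 CPM. The complement gene C1qa was at 2.00 ± 0.329 against 0.723 ± 0.244 CPM. The mannose receptor Mrc1 was at 2.59 ± 0.345 against 2.05 ± 0.336 CPM, the efferocytosis receptor Mertk at 0.739 ± 0.193 against 1.06 ± 0.328 CPM, and Timd4 and Vsig4, markers of resident macrophages, were at or near 0 with at most 3 and 2 estimated counts in any library.

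The 150 bases upstream of 6 genes are shown, each with a match in that stretch to a motif given below. They are the primary granule genes Elane and Prtn3, the secondary granule genes Ltf, Ngp and Mmp8, and the late receptor gene Fpr2. No tertiary granule gene is shown. RefSeq promoter sequences of GRCm38.p6 were found for 26 of the 33 members. Capitals mark the C/EBP-type motif TTNNGCAA and the PU.1-type motif GAGGAA, each on either strand. Each line below reads 5′ to 3′ on the plus strand and ends at the base before the annotated start.
Elane: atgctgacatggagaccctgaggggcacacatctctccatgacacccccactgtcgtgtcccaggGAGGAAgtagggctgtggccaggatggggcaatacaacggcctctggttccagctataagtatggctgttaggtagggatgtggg
Prtn3: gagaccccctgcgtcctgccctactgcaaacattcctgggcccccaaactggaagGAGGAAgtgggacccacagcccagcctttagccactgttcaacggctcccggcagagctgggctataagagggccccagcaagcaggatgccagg
Ltf: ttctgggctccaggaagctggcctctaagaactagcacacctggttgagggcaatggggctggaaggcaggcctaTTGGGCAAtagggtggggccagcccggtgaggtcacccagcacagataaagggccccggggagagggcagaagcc
Ngp: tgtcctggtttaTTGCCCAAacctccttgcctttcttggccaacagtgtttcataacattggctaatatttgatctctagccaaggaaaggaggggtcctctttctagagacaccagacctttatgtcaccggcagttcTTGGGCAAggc
Mmp8: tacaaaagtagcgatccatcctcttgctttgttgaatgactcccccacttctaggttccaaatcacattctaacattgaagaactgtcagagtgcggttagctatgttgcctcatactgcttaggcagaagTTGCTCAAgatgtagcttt
Fpr2: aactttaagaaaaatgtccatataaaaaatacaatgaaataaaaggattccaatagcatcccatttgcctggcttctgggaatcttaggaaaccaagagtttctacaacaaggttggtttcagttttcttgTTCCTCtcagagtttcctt
In GRCm38 these stretches lie at chr10:79886162-79886311, chr10:79879517-79879666, chr9:111019142-111019291, chr9:110419658-110419807, chr9:7558279-7558428 and chr17:17887674-17887823, all on the plus strand. Elane and Prtn3 are neighbours, 3137 bases apart, and each carried GAGGAA, starting 85 and 95 bases before its start site. The motif TTNNGCAA began 75 bases before the start of Ltf, 138 and 11 bases before that of Ngp and 19 bases before that of Mmp8. Fpr2 held GAGGAA in its reverse form, 19 bases before its start. Over the 250 bases upstream, TTNNGCAA was found in 5 of 11 secondary and 3 of 4 tertiary granule promoters, and in 0 of 6 primary granule and 0 of 5 late receptor promoters, against 10.8% of 27025 genes. GAGGAA was found in 17 of 26 members against 25.9% of all genes. No TTNNGCAA match overlapped a GAGGAA match in these promoters. The promoters shown do not stand for their stages. Among other called genes, Camp, Fpr1 and Padi4 held neither motif over the 250 bases. Cd177, Pglyrp1, Itgb2l and Olfm4, secondary granule genes that were called, held GAGGAA without TTNNGCAA. The motifs were chosen after the expression results were known, and a match describes letters, not a bound site.

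Levels per transcript length, in TPM (the authors' length-scaled transcript abundance, summed per gene), placed several of these genes among the most abundant of the whole table. Ngp, which encodes neutrophilic granule protein, stood at 11745 ± 1603 TPM in the D and 7732 ± 636 TPM in the M libraries, the 4th and the 6th highest of 17890 genes. Retnlg, a resistin-like secreted protein, followed at 5931 ± 1561 TPM in the D and 3344 ± 718 TPM in the M libraries. Lcn2, the siderophore-binding lipocalin, came next at 4151 ± 303 TPM in the D and 2992 ± 189.7 TPM in the M libraries. The primary granule genes were lower, with Elane at 921 ± 136 TPM in the D and 825 ± 123 TPM in the M libraries and Mpo at 819.9 ± 116 TPM in the D and 900.3 ± 128 TPM in the M libraries. At the other end Orm1, an acute-phase plasma protein, stood at 8.61 ± 4.67 TPM in the D and 2.53 ± 0.505 TPM in the M libraries. Together the 33 genes took 3.89%, 4.40%, 5.29% and 4.43% of all TPM in D replicates 1 to 4 and 3.22%, 2.90%, 3.19% and 3.17% in M replicates 1 to 4, so every D library lay above every M library. In bulk RNA, fewer cells of a type and less RNA per cell cannot be told apart.

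**Figure D1:**
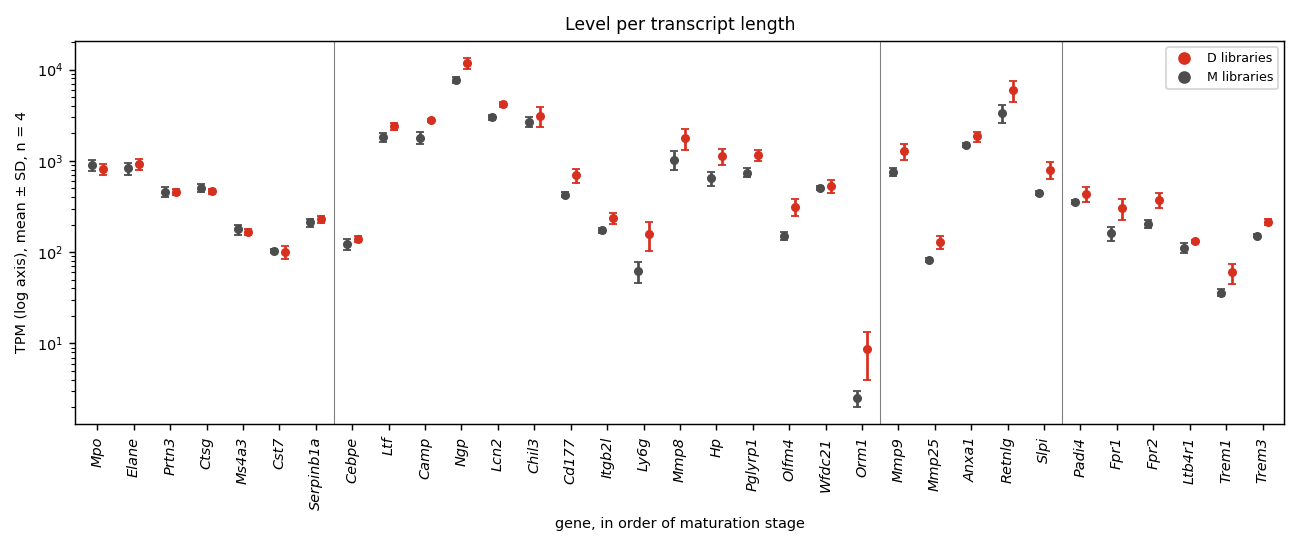
Level of each of the 33 genes in TPM (vertical log axis), with mean ± SD over 4 D libraries (red) and 4 M libraries (grey), ordered by stage. Ngp and Retnlg are the most abundant and Orm1 the least, at 8.61 and 2.53 TPM, while the primary granule genes at the left have overlapping groups.

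Of the 33 genes, 23 passed the test as higher in D than in M libraries, against 17.4% of all tested genes called higher. None was lower (0 of 33), against 17.3% of all tested genes. DESeq2's test and voom also called 0 lower, and 0 of the fitted decreases had an unadjusted p under 0.05 in edgeR. The median log2 fold change was 0.59 over the 33 genes and -0.03 over all tested genes. The change was not spread evenly over the stages: 0 of 7 primary granule genes, 12 of 15 secondary, 5 of 5 tertiary and 6 of 6 late genes were called, with medians of 0.06, 0.72, 0.85 and 0.70. In 21 of the 33 genes every D library lay above every M library, against 16.3% of all tested genes, and in 0 every D library lay below, against 18.4%. The difference between stages was not tested, and the genes and their stages were chosen with earlier results of these data known.

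**Figure D2:**
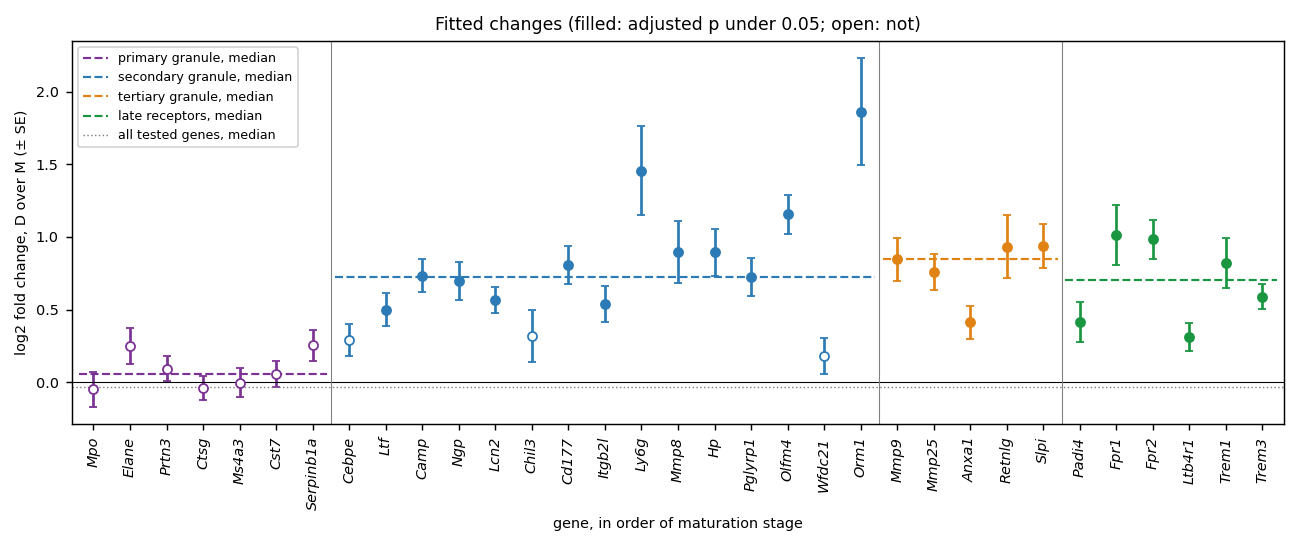
Fitted log2 fold change of each gene, D over M, with its SE (n = 4 per group), in order of stage; filled points passed an adjusted p of 0.05 and dashed lines are stage medians. The 7 primary granule genes lie around their median of 0.06, and the later stages around 0.70 to 0.85.

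Primary granule genes did not separate the groups. Mpo (chr11:87793784-87804412), the haem peroxidase that makes hypochlorous acid, stood at 1318, 1032, 1043 and 1171 CPM in D replicates 1 to 4 against 1311, 1002, 1056 and 1352 CPM in M replicates 1 to 4. Elane (chr10:79886312-79888216), neutrophil elastase, stood at 528, 393, 429.8 and 439 against 429, 309, 345 and 426 CPM in the same order. The ranges of the groups overlapped for each, although D replicate 1 had the highest Elane value of all libraries. The fitted changes were -0.05 ± 0.12 for Mpo (adjusted p = 0.775, 95% interval -0.31 to 0.22) and 0.25 ± 0.12 for Elane (adjusted p = 0.145, 95% interval -0.03 to 0.52). With the replicate number as a block Elane passed, at 0.25 (adjusted p = 0.0241).

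Prtn3, the serine protease proteinase 3, stood at 253, 229, 232 and 232 against 224, 190.0, 223 and 250.2 CPM. Ctsg, cathepsin G, was at 247 ± 10.1 against 253 ± 28.6 CPM. Ms4a3, a membrane protein of granulocyte and monocyte progenitors, ranged from 81.5 to 95.3 CPM in D and from 75.2 to 106 CPM in M libraries, and Cst7, the protease inhibitor cystatin F, at 52.3 ± 6.39 against 50.3 ± 2.79 CPM. The groups of these 4 genes overlapped, and their log2 fold changes ran from -0.04 to 0.09. Serpinb1a, an intracellular inhibitor of elastase and cathepsin G, had the largest fitted change of the stage, 0.25 ± 0.11 (adjusted p = 0.0862), and the smallest p, 0.0363 before adjustment. DESeq2's test called Serpinb1a (0.28, adjusted p = 0.0495), which made 1 of 7 by that tool against 0 by edgeR and voom. It also passed without D replicate 1 (adjusted p = 0.0409) and without M replicate 1 (adjusted p = 0.0331).

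**Figure D3:**
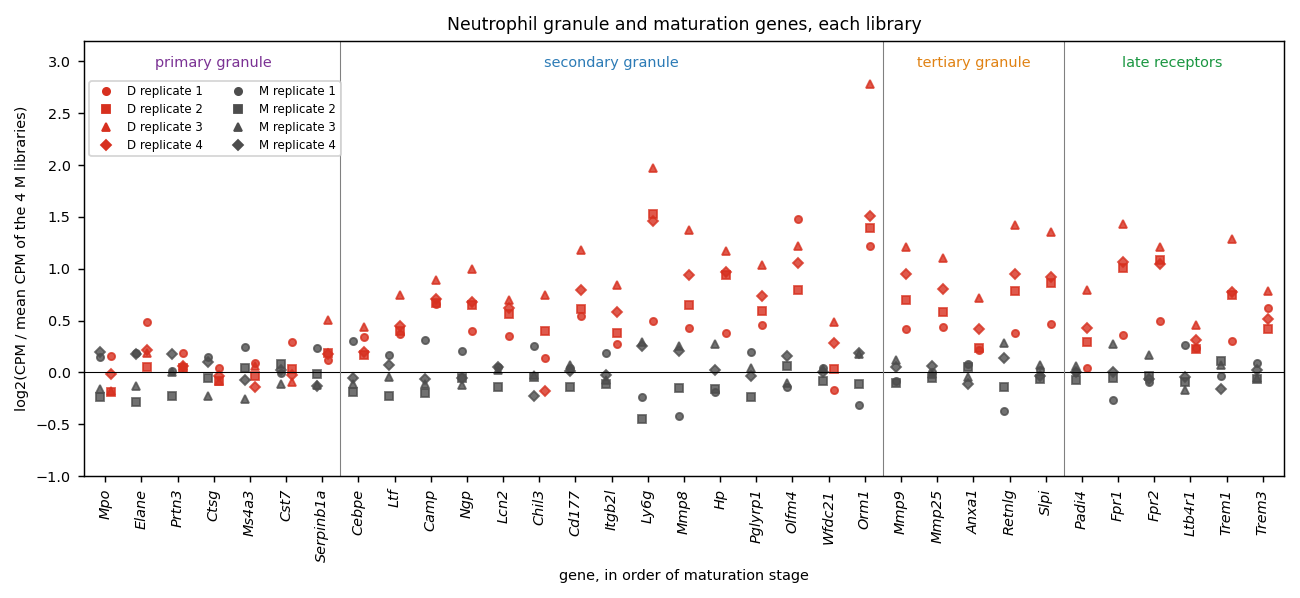
Every library's CPM for each gene as log2 of its ratio to the mean of the 4 M libraries (D red, M grey, marker shape by replicate number), in order of stage. Red and grey points intermix for the primary granule genes and separate for most later genes, with D replicate 3 (triangle) usually on top and D replicate 1 (circle) usually lowest among the red points.

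Secondary granule genes were higher in the D libraries in 12 of 15 cases, beginning with the best-known granule proteins. Ltf (chr9:111019292-111042766), lactoferrin, which binds iron, stood at 3324, 3375, 4301 and 3503 CPM in D replicates 1 to 4 against 2891, 2184, 2486 and 2699 CPM in M replicates 1 to 4. Camp (chr9:109847377-109849456), the precursor of the cathelicidin peptide, stood at 819, 824, 959 and 847 against 645, 453, 479.5 and 497 CPM. Ngp (chr9:110419808-110423012), a cathelicidin relative, stood at 5953, 7099, 9031 and 7217 against 5218, 4343, 4166 and 4338 CPM. The groups did not overlap for any of these 3 genes, which lie along chromosome 9 with 570 kb between Camp and Ngp and 596 kb between Ngp and Ltf. Ltf rose 1.41-fold (log2 fold change 0.50 ± 0.11, adjusted p = 0.00741), Camp 1.66-fold (log2 fold change 0.73 ± 0.11, adjusted p = 0.000972) and Ngp 1.62-fold (log2 fold change 0.70 ± 0.13, adjusted p = 0.00267).

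Lcn2 (chr2:32384637-32387739) stood at 1611, 1867, 2051 and 1942 against 1309, 1143, 1285 and 1310.1 CPM and Pglyrp1, which recognises bacterial peptidoglycan, at 339, 372, 505 and 410.2 against 282, 209, 255 and 240.4 CPM. Each D library exceeded each M library, and the genes rose 1.48-fold (adjusted p = 0.00132) and 1.65-fold (adjusted p = 0.00223). Mmp8 (chr9:7558429-7568486), neutrophil collagenase, stood at 1737, 2039, 3367 and 2490.1 against 968, 1170.0, 1550.0 and 1491 CPM. Hp, haptoglobin, a haemoglobin-binding protein stored in granules, stood at 571, 845, 992 and 857 against 386, 393, 533 and 446 CPM. Both were highest in D replicate 3, without overlap between groups, and rose 1.86-fold (log2 fold change 0.90 ± 0.21, adjusted p = 0.0109) and 1.86-fold (log2 fold change 0.89 ± 0.16, adjusted p = 0.00275).

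The surface proteins of this stage moved the same way. Cd177, a GPI-anchored surface protein of neutrophils, stood at 869, 913, 1352 and 1032 against 613, 543, 628 and 602 CPM. Itgb2l, an integrin beta 2-like chain of neutrophils, stood at 288, 310.3, 428 and 357 against 272, 221, 227 and 234 CPM. Ly6g (chr15:75155261-75159128), the antigen by which mouse neutrophils are usually gated, stood at 39.7, 81.1, 111 and 77.7 against 23.8, 20.7, 34.6 and 33.6 CPM. Ly6g was 39.7 CPM in D replicate 1 and 77.7 CPM or more in the other D libraries, all above the highest M library. It rose 2.74-fold (log2 fold change 1.46 ± 0.31, adjusted p = 0.00815), Cd177 1.75-fold (log2 fold change 0.80 ± 0.13, adjusted p = 0.00131) and Itgb2l 1.45-fold (log2 fold change 0.54 ± 0.12, adjusted p = 0.00693). Itgb2l overlaps Igsf5, and Ly6g belongs to a family of similar genes, so reads shared with other genes make their levels less certain.

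Olfm4 (chr14:80000302-80023141), olfactomedin 4, a protein found in the granules of only some neutrophils, stood at 595, 371, 497 and 443 against 194, 223, 199 and 239 CPM. It was the only called gene whose highest D library was D replicate 1, and it rose 2.23-fold (log2 fold change 1.16 ± 0.13, adjusted p = 0.00021). Orm1, orosomucoid, stood at 2.26, 2.55, 6.67 and 2.76 against 0.782, 0.899, 1.10 and 1.10 CPM. It was the least abundant gene of the 33, with D replicate 3 far above the other D libraries, and rose 3.64-fold (log2 fold change 1.86 ± 0.37, adjusted p = 0.00378). On the log2(FPKM + 1) scale, which understates changes of low genes, its change was 1.17 (limma, adjusted p = 0.00504), and without D replicate 3 it was 1.39 (adjusted p = 0.00123). Its near-identical relatives Orm2 and Orm3 were present too, at means of 7.57 and 81.9 estimated counts in D and 5.29 and 50.3 in M libraries, so the assignment of reads to Orm1 is uncertain.

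The other 3 genes of this stage did not pass. Cebpe (chr14:54710363-54712174), which encodes C/EBPε itself, stood at 95.8, 85.1, 103 and 87.0 against 93.5, 66.7, 70.2 and 72.9 CPM, and the group ranges overlapped since M replicate 1 was above D replicates 2 and 4. Its change was 0.29 ± 0.11 (adjusted p = 0.0601), and it passed with the replicate block (0.30, adjusted p = 0.0278), with DESeq2's size factors (0.31, adjusted p = 0.0459) or test (0.31, adjusted p = 0.0299) and without M replicate 1 (0.41, adjusted p = 0.00891). Chil3, the chitinase-like protein Ym1, also made by monocytes and alternatively activated macrophages, was at 2623 ± 713 against 2102 ± 298 CPM (adjusted p = 0.192). Wfdc21, a whey acidic protein with antimicrobial relatives, was at 117 ± 23.3 against 103 ± 4.13 CPM (adjusted p = 0.276, or 0.0288 without D replicate 1).

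Tertiary granule genes were higher in all 5 cases, with no overlap between groups. Mmp9 (chr2:164940326-164955850), gelatinase B, stood at 1651, 2014, 2864 and 2386 CPM in D replicates 1 to 4 against 1172, 1156, 1347 and 1281 CPM in M replicates 1 to 4. Mmp25, a membrane-anchored metalloprotease, stood at 221, 245, 351 and 286 against 164, 158, 161 and 171 CPM. Slpi, an inhibitor of elastase, stood at 269, 353, 497 and 367 against 197, 186, 203 and 189.9 CPM. In each of them the M libraries lay close together, and the D libraries ranged from D replicate 1, the lowest, to D replicate 3, the highest. Mmp9 rose 1.80-fold (log2 fold change 0.85 ± 0.15, adjusted p = 0.00207), Mmp25 1.69-fold (log2 fold change 0.76 ± 0.12, adjusted p = 0.00147) and Slpi 1.91-fold (log2 fold change 0.94 ± 0.15, adjusted p = 0.00148).

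Retnlg (chr16:48872608-48874498) stood at 1270.2, 1687, 2620.3 and 1887 against 756, 889, 1189 and 1075 CPM. D replicate 1, the lowest D library, was still above M replicate 3, the highest M library, and the gene rose 1.91-fold (log2 fold change 0.93 ± 0.21, adjusted p = 0.00913). Anxa1, annexin A1, which limits neutrophil adhesion and is also made by macrophages, stood at 1223, 1234, 1725 and 1402 against 1114, 1090.5, 1020.0 and 974 CPM. It rose by the least in this stage, 1.33-fold (log2 fold change 0.41 ± 0.11, adjusted p = 0.0173), and it did not pass when M replicate 4 was left out (0.38, adjusted p = 0.0554) or with its most abundant transcript alone, where fewer genes were called in all (0.40, adjusted p = 0.0529). Mmp25 overlaps Bicdl2. With curated transcripts only its call ended (0.30, adjusted p = 0.395), a setting that leaves out the predicted transcript holding most of its counts. With its most abundant transcript alone it stayed called (0.90, adjusted p = 0.00334).

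Late receptors and enzymes were higher in all 6 cases, without overlap in 4. Fpr1 (chr17:17876471-17883939) and Fpr2 (chr17:17887824-17893952), formyl peptide receptors that detect bacterial and mitochondrial peptides, lie 3884 bases apart. Fpr1 stood at 137, 215, 288 and 223 CPM in D replicates 1 to 4 against 88.6, 103, 129 and 107 CPM in M replicates 1 to 4. Fpr2 stood at 186, 279.6, 305 and 273 against 124, 129, 148 and 127 CPM. D replicate 1 was the lowest D library for each and still above all M libraries. Fpr1 rose 2.02-fold (log2 fold change 1.01 ± 0.21, adjusted p = 0.00553) and Fpr2 1.98-fold (log2 fold change 0.98 ± 0.14, adjusted p = 0.000588).

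Trem1, an activating receptor that amplifies inflammatory signalling, stood at 68.4, 92.9, 135 and 94.9 against 54.1, 59.8, 58.2 and 49.5 CPM. Trem3, its neighbour 749 bases away, stood at 119.6, 104, 134 and 111 against 82.7, 74.6, 74.9 and 79.2 CPM. The groups of each did not overlap, and they rose 1.76-fold (log2 fold change 0.82 ± 0.17, adjusted p = 0.00623) and 1.50-fold (log2 fold change 0.59 ± 0.08, adjusted p = 0.00065). The table lists some transcripts of Trem1 and Trem3 again as second entries with matching counts, which were summed, so these levels depend on how reads were divided. With its most abundant transcript alone Trem1 did not pass (0.68, adjusted p = 0.0631).

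The 2 genes of this stage whose groups overlapped were also those whose calls were least firm. Padi4 (chr4:140745508-140774239), the enzyme that citrullinates histones during release of neutrophil extracellular traps, stood at 460.1, 548, 778 and 602 against 449, 426, 469 and 449 CPM. D replicate 1 lay within the M range, and the change was 1.33-fold (log2 fold change 0.41 ± 0.14, adjusted p = 0.0363). Ltb4r1, the leukotriene B4 receptor, stood at 94.8, 94.5, 111 and 100.2 against 96.7, 75.6, 71.9 and 78.3 CPM, where M replicate 1 reached the D range, and the change was 1.24-fold (log2 fold change 0.31 ± 0.10, adjusted p = 0.0302). With library totals alone, the deposited FPKM or TPM neither passed (Padi4 0.27 to 0.30, adjusted p = 0.0596 to 0.0932; Ltb4r1 0.20 to 0.23, adjusted p = 0.0509 to 0.0903). Padi4 also failed without D replicate 4 or without any 1 M library (adjusted p up to 0.0921) and with its most abundant transcript alone (0.21, adjusted p = 0.454). Ltb4r1 also failed without D replicate 3 or 4, without M replicate 2, 3 or 4 (adjusted p up to 0.0861), without D replicates 1 and 3 together (adjusted p = 0.0735), with its most abundant transcript (adjusted p = 0.0879) and with curated transcripts only (adjusted p = 0.0590).

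Ratios within a library do not depend on how libraries are scaled to each other. The TPM of Ngp divided by that of Mpo was 10.1, 15.4, 19.4 and 13.8 in D replicates 1 to 4 and 8.94, 9.74, 8.86 and 7.20 in M replicates 1 to 4, without overlap. The ratio of Retnlg to Mpo was 4.31, 7.30, 11.2 and 7.20 against 2.58, 3.97, 5.03 and 3.55, where D replicate 1 lay below M replicate 3. The ratio of Retnlg to Ngp, a later against an earlier granule gene, was 0.424, 0.473, 0.577 and 0.520 against 0.288, 0.407, 0.568 and 0.493, and the groups overlapped widely. Primary granule genes held between 5.51% and 9.33% of the members' summed TPM in D libraries, and between 9.24% and 11.1% in M libraries. These ranges overlapped, since D replicate 1 lay above M replicate 3. The shares of the secondary (66.5% to 68.6% against 65.4% to 70.0%), tertiary (19.4% to 24.3% against 16.3% to 21.9%) and late genes (3.14% to 3.47% against 3.04% to 3.43%) overlapped too. The pairs were chosen with the results known, so these ratios carry no test.

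**Figure D4:**
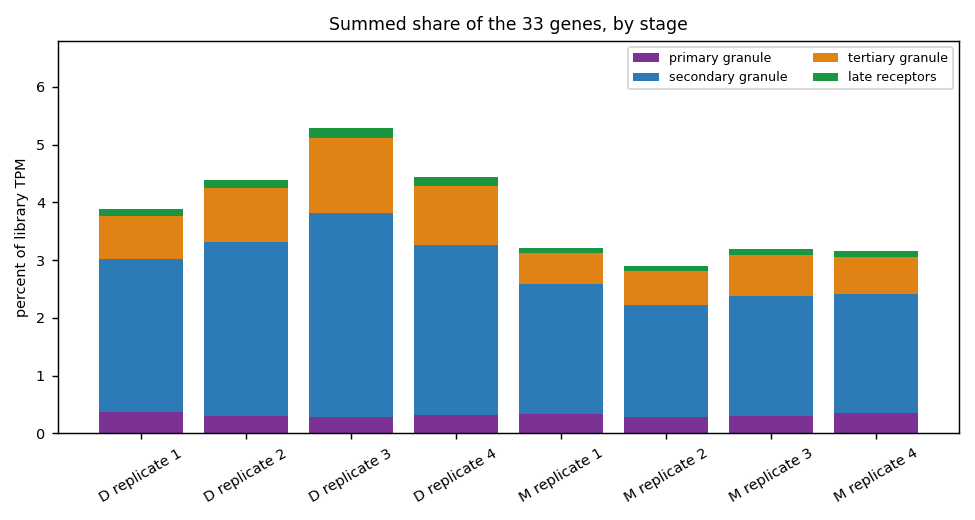
Percent of each library's TPM taken by the 33 genes, stacked by stage, for D replicates 1 to 4 and M replicates 1 to 4. The primary granule segment at the base is of similar height in all 8 libraries (0.284% to 0.363%), while the secondary and tertiary segments are taller in the D libraries, most in D replicate 3.

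The spread inside the D group followed the same libraries from gene to gene. Of the 23 called genes, 22 had their highest D value in D replicate 3 and 20 their lowest in D replicate 1. Among the 7 primary granule genes, 6 had instead their highest D value in D replicate 1. Without D replicates 1 and 3 together 22 of the 33 genes were called higher, and the stage medians were 0.02, 0.69, 0.85 and 0.63. Leaving out each library in turn gave 20 to 25 genes higher. Scaling by library totals alone moved the median of all genes by -0.10 and the stage medians to -0.04, 0.61, 0.73 and 0.59, with 21 genes called higher.

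Other genes of granulocyte formation, from lists that hold none of the 33, were read for comparison. Among 11 transcription factors, 4 rose and 2 fell, against 17.4% and 17.3% of all tested genes, so the number that fell was near the background. Cebpd (128 ± 10.6 against 83.0 ± 5.59 CPM), which is induced in late myeloid maturation, Junb (143 ± 30.6 against 82.5 ± 10.9 CPM) and Klf6 (418 ± 26.3 against 314 ± 36.5 CPM) rose, and Myb, which keeps progenitors immature, fell (219 ± 40.2 against 395 ± 15.2 CPM; log2 fold change -0.85, adjusted p = 0.000501). Cebpa, which starts granulocyte commitment, was at 111 ± 9.56 against 105 ± 5.92 CPM, and Gfi1, a repressor needed for neutrophil formation, at 42.4 ± 2.29 against 43.4 ± 5.58 CPM, neither of which passed. Spi1, which encodes PU.1, rose (360.4 ± 34.3 against 301 ± 7.93 CPM, adjusted p = 0.0253). Ets1 fell (176 ± 4.77 against 204 ± 11.7 CPM, adjusted p = 0.0251). B-lineage cells also transcribe Myb, and their markers moved in the same libraries, as given below. What lowered Myb was not tested.

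In a list named for other promyelocyte genes 7 of 10 tested members rose, against 17.4% of all tested genes. Of the 7 primary granule genes 0 rose, a difference that was not tested. The 4 with the lowest p were Hdc, which makes histamine (288 ± 38.4 against 112 ± 31.1 CPM), Ctsc, the protease that activates granule serine proteases (247 ± 34.2 against 154 ± 21.5 CPM), Lyz2, lysozyme (8145 ± 1911 against 4606 ± 303 CPM), and Srgn, a proteoglycan that packs granules (533 ± 67.0 against 364 ± 26.4 CPM). None of these 4 is limited to promyelocytes: Hdc is a basophil and mast cell gene too, and Lyz2, Srgn and Ctsc are made by monocytes and macrophages. Also called higher were Mgst1 (171 ± 34.8 against 103 ± 11.9 CPM, adjusted p = 0.0027) and Nkg7 (25.5 ± 2.62 against 18.5 ± 2.44 CPM, adjusted p = 0.00948). Fcnb rose too (171 ± 49.0 against 103 ± 25.8 CPM, adjusted p = 0.0335), though its groups overlapped. Prss57, a serine protease of primary granules, was at 23.2 ± 2.67 against 19.3 ± 4.52 CPM and did not pass (adjusted p = 0.194). Neither did Mycn (adjusted p = 0.554) or Clec11a (adjusted p = 0.365).

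Of 20 other genes of maturing neutrophils 15 rose, against 17.4% of all tested genes, with a median log2 fold change of 0.48. They included Ncf1 and Cybb, subunits of the phagocyte oxidase (1250.0 ± 233 against 763 ± 45.4 CPM and 905 ± 161 against 593 ± 11.3 CPM), Ifitm6 (330.3 ± 45.1 against 211 ± 9.76 CPM) and Lrg1, a secreted glycoprotein (74.3 ± 21.5 against 22.4 ± 4.06 CPM). S100a9, at the highest CPM of this list, did not pass (18448 ± 3759 against 15195 ± 319.7 CPM, adjusted p = 0.126). Cd24a, Cd63, Cyba and Ncf4 did not pass either. Of 21 tested genes of late neutrophils 12 rose, against the same 17.4%, with a median of 0.69. The decoy interleukin 1 receptor Il1r2 (87.4 ± 18.7 against 35.4 ± 7.73 CPM), the Myc antagonist Mxd1 (1131 ± 191 against 599.9 ± 54.7 CPM), the selectin ligand Selplg (649 ± 108 against 385 ± 51.2 CPM) and Alox5ap, needed for leukotriene synthesis (730.3 ± 129.7 against 477 ± 18.1 CPM), had the lowest p. The late genes Stfa1, Stfa2, Stfa3, Stfa2l1, Asprv1, G0s2, Cxcl2, Ccrl2 and Msrb1 did not pass (adjusted p = 0.0650 to 0.797). The lists hold many genes that monocytes and macrophages share.

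**Figure D5:**
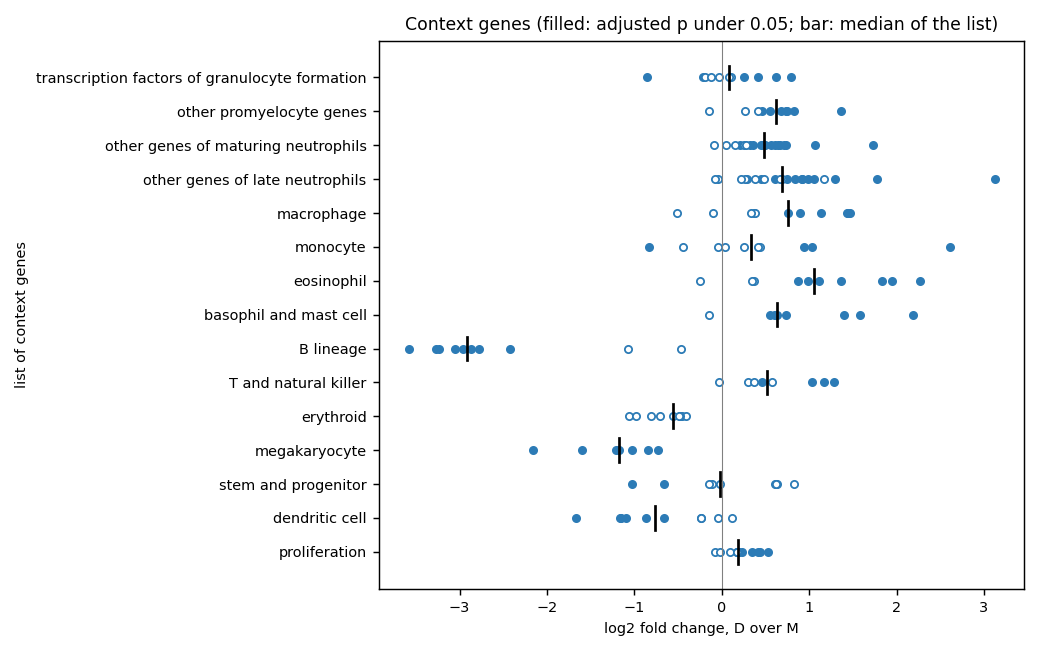
Fitted log2 fold changes (D over M, horizontal axis) of the tested genes in each context list (vertical axis), filled where the adjusted p was under 0.05, with a bar at the median of the list. The lists of maturing and late neutrophils lie mostly to the right at medians of 0.48 and 0.69, and the B-lineage list lies to the left at -2.92.

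Markers of other cells that marrow cultures can hold were read in the same libraries, where 17.4% of all tested genes rose and 17.3% fell. Of 10 B-lineage markers 8 fell, and their summed level was 69.6 to 246 CPM in D against 1166 to 1519 CPM in M libraries, with Cd79b at 28.7 ± 11.3 against 277 ± 43.5 CPM. All 7 megakaryocyte markers fell (159.9 to 251 against 361 to 478 CPM). Of 9 tested basophil and mast cell markers 8 rose (831 to 1223 against 473 to 562 CPM), with Fcer1a at 30.8 ± 4.54 against 6.74 ± 0.940 CPM, and of 10 eosinophil markers 7 rose (279 to 526 against 218 to 288 CPM). Of 11 tested macrophage markers 7 rose (534 to 636 against 373 to 504 CPM), and of 10 monocyte markers 3 rose and 1 fell (1483 to 1812 against 1085 to 1317 CPM). Of 10 dendritic cell markers 6 fell (107 to 242 against 306 to 343 CPM), of 8 tested T and natural killer cell markers 4 rose, and of 12 proliferation genes 6 rose. Of 9 stem and progenitor markers 2 rose and 2 fell. The stem and progenitor counts and the falling monocyte count were near the shares of all tested genes, and the rising monocyte count was not far above them. In D replicate 3, where most neutrophil genes peaked, the B-lineage, megakaryocyte, dendritic cell and erythroid sums were the lowest of the 8 libraries. The erythroid sum was 905 to 4238 against 2949 to 5754 CPM, and its 9 markers had adjusted p-values of 0.0766 or more. Their part in the differences of the neutrophil genes was not tested.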

How the data were processed

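The report rests on 8 RNA sequencing libraries from mouse marrow cultures of the first phase, 4 D and 4 M. Per the labels' design text, the authors filtered reads with SOAPnuke 1.5.6 and used an aligner spelled HISTA2, version 2.1.0, on mm10 (also named GRCm38, per the submitters' processing notes). The sources used here do not give the quantifier, the annotation release or the use of strand. For each RefSeq transcript the authors deposited an estimated count without normalization, exactly whole as written in 37.3% to 40.8% of transcripts per library, zeros included. Deposited with them were FPKM and TPM values, scaled by transcript length, and a signal of counts normalized by the authors, which was not used, like 8 columns of group means.

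Estimated counts were summed over the 60072 transcripts to 17890 genes and rounded. 17836 genes had a symbol in the RefSeq table of GRCm38. Genes were filtered with filterByExpr (minimum count 10), scaled by TMM (factors 0.913 to 1.05) and tested for group by the robust quasi-likelihood test of edgeR 4.0.16 in R 4.3.3, with Benjamini-Hochberg adjustment over all 12839 tested genes. SE is the log2 fold change divided by the square root of the F statistic. The biological coefficient of variation was 12.4%. No 2 replicates agreed within sampling noise (6.52 to 67.7 for chi-square per gene). The fits were tested on simulated counts with 200 changed genes. Of genes changed 1.5-fold edgeR recovered 60%, and of those changed 2-fold 96%. Smaller changes were not simulated, so a gene that did not pass may still differ by less. Alternatives were DESeq2 1.42.0, voom (limma 3.58.1), other scalings, filters, units (limma on log2 of FPKM plus 1 or 0.1, or of TPM plus 1) and transcript choices, a replicate block, and each library left out.

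Labels number the replicates 1 to 4 in each group. Deviations of same-numbered D and M libraries from their group means correlated at 0.115, 0.131, 0.118 and 0.182, each over 0.1, so the numbers were treated as possible pairs, although no label says what they stand for. The blocked value stands beside a result where it changed the call. The 33 members, their stages and the comparison lists were chosen with earlier results of these data known. All 33 members are named. Of the comparison lists, named genes are the 4 called ones of lowest p. Of cell type lists they come from the 2 most abundant and the 2 called ones of lowest p. Others were singled out after their values were seen: Adgre1, Mrc1, Mertk, Timd4, Vsig4, Cebpa, Gfi1, Spi1, Ets1, Prss57, Mgst1, Fcnb, Nkg7, Mycn and Clec11a. The named genes of maturing and late neutrophils that did not pass were also chosen in this way.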

Additional observations from a re-analysis of the deposited data

Results flagged for a closer look

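Among the 66 sets of 4 libraries (33 genes, D and M each), 5 held a library whose gap to its nearest neighbour took 0.832 to 0.887 of the range of its group, above Dixon's critical value for 4 samples. Chance flags about 1 in 20 such sets. In the D group Prtn3 reached 253 CPM in replicate 1, Serpinb1a reached 250.2 CPM in replicate 3 and Orm1 6.67 CPM in replicate 3. In the M group Ngp reached 5218 CPM in replicate 1, the library in which Camp and Cebpe were also highest, and Lcn2 was 1143 CPM in replicate 2. Ngp and Lcn2 kept their calls with each library left out in turn, as did Orm1.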

How the results depend on the processing

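The 22 alternatives gave 19 to 25 of the 33 genes higher and 0 lower, and 18 of the 23 called genes kept their call under each alternative that gave them a value (Orm1 was not tested at a minimum count of 50). Mmp25, Anxa1, Padi4, Ltb4r1 and Trem1 lost it as given above. Over all tested genes 4456 were called, 2052 with the most abundant transcript only and 2531 with curated transcripts only, settings that test fewer genes and reads. Without single libraries this count ran from 3458 to 5369 genes, that of members higher from 20 to 25, and that of members lower was 0. Of called genes 50.1% were higher with TMM factors, against 31.3% with library totals, 30.9% to 31.1% with FPKM and 33.01% with TPM. With the replicate block 4815 genes were called in all and 25 members higher; besides Elane and Cebpe it changed no member's call. Signs turned for 5 primary granule genes, none of which passed either way. Prtn3 (0.09) was -0.013 with library totals and -0.0085 with FPKM at both pseudocounts, and Cst7 (0.06) was -0.043, -0.052 and -0.053 with these and -0.038 with TPM. Ms4a3 (-0.0026) was 0.022 with DESeq2's size factors or test, 0.0061 with voom and 0.0052 with the replicate block. With 1 library left out, Mpo (-0.05) ran from -0.12 to 0.022, Ctsg (-0.04) from -0.11 to 0.012, Ms4a3 from -0.079 to 0.088 and Cst7 from -0.0048 to 0.12. The causes were not tested. Among the comparison lists, library totals changed the counts that rose to 3 of the transcription factors, 13 of the maturing and 11 of the late neutrophil genes and 4 of the proliferation genes, and to 3 the transcription factors that fell. Depth limits Orm1 most, at 0.782 to 6.67 CPM per library.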

Other observations

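Several members are counted over more than 1 transcript, and for some the division differed between groups. The curated transcript of Padi4 took 49.4% ± 2.26 of its counts in the D and 41.5% ± 1.87 in the M libraries (SD, n = 4), without overlap, the rest falling mostly on a predicted transcript. Of the Serpinb1a counts 1 predicted transcript took 24.2% ± 6.69 against 45.1% ± 5.67, and another 38.7% ± 7.56 against 16.1% ± 7.46, again without overlap. The predicted transcript of Mmp25 took 79.4% ± 3.12 against 71.1% ± 1.93. These shares are estimates of the authors' quantifier and were not tested.

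Close relatives of some members were counted at low levels. Chil4, the close copy of Chil3, held 3.02 to 10.2 estimated counts per library, and Serpinb1b and Serpinb1c at most 4.76 and 3.60. Ltb4r2, the low-affinity leukotriene B4 receptor, held 14.2 to 33.4 counts. Family members of Ly6g were not all low: Ly6c2 held 11729.6 to 15437.5 estimated counts per library, Ly6c1 259 to 346 and Ly6i 38.0 to 109.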
